A study of Mus musculus with 8 samples.

Results

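Matricellular proteins are secreted into the extracellular matrix, where they regulate how cells and matrix interact rather than bear load. The family members followed here are 10 of the 22558 genes in the deposited fragment table, chosen by symbol: Sparc, Sparcl1, Spp1, Postn, Tnc, Tgfbi, Ctgf, Cyr61, Nov and Wisp2. The files give them in lower case (sparc, sparcl1, spp1, postn, tnc, tgfbi, ctgf, cyr61, nov and wisp2), and all 10 were found and passed the filter on low counts. The CCN genes stand under older names, Cyr61 for Ccn1, Ctgf for Ccn2, Nov for Ccn3 and Wisp2 for Ccn5. The study sequenced RNA of mouse cells in 4 groups with 2 libraries each, 8 in all. For 3 of the groups, pancreas, skeletal muscle or visceral adipose tissue was dissociated and cells carrying fibroblast activation protein (FAP), a cell-surface protease, were sorted. The labels call the pancreas cells stellate cells. The other group, mouse embryonic fibroblasts (MEFs), was sorted as FAP-negative, cultured for 3 passages and sorted again. Strain, age, genotype and the number of animals per library are not given in the labels. Every group passed through a cell sort, and RNA of every group was amplified before sequencing. Libraries of a group came from duplicate experiments. All 8 libraries entered the same main fit, so its p-values measure the spread between duplicates pooled over the 4 groups. Leaving out a library of a group that is not compared can therefore change a p-value. The comparisons ask how FAP+ cells of each tissue differ from FAP-negative fibroblasts and from each other. The FAP+ cells came straight from tissue and the MEFs from culture, so the effect of FAP status and that of culture cannot be told apart. The 3 comparisons with MEFs use the same pair of MEF libraries, so they are not independent.

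Matricellular proteins bind integrins, other cell-surface receptors, growth factors and structural matrix proteins. In adult tissue many of them are low and become abundant during development, wound repair and fibrosis, while SPARC is plentiful in most fibroblasts. The CCN proteins share a modular structure and regulate adhesion, migration and growth factor access. Transcription of Cyr61 and Ctgf responds within minutes to serum, stretch and loss of attachment, through serum response factor and through YAP and TAZ acting with TEAD factors.

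Promoter windows from RefSeq (GRCm38.p6, from 250 bases before to 50 after a transcript start) were matched by symbol for 6 of the 10 genes, in 9 windows. These genes lie on chromosome 5 (Spp1), 3 (Postn and Cyr61), 4 (Tnc), 11 (Sparc) and 13 (Tgfbi). No window was matched for Sparcl1, Ctgf, Nov and Wisp2. The windows were searched on both strands for the TEAD motif GGAATG, the AP-1 motif TGAGTCA, the CArG box of serum response factor and, added after the others had been searched, TATAAA. Of 32851 RefSeq windows, 14.7% hold GGAATG, 5.2% TGAGTCA, 1.63% a CArG box and 13.6% TATAAA. Among the family's windows GGAATG was found once, in that of Cyr61, and neither TGAGTCA nor a CArG box was found. TATAAA was in 5 of the 9 windows, those of Cyr61, both of Tnc, 1 of Spp1 and 1 of Postn. The 2 windows of Tnc overlap and hold the same TATAAA site. The Cyr61 and Spp1 windows are shown because Cyr61 holds the TEAD letters and Spp1 has the widest range of levels across the groups. Capitals mark GGAATG, read here from the other strand as CATTCC and starting at position -103 from the transcript start, and TATAAA, at -25 in Cyr61 and at -211 in Spp1.
Cyr61, chr3:145649936-145650235, minus strand: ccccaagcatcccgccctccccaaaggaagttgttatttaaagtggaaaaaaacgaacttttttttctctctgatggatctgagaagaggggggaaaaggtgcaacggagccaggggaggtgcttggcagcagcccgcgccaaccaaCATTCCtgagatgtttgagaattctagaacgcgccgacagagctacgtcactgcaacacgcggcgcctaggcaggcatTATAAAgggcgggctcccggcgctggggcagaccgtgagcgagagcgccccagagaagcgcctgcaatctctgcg
Spp1, chr5:104434861-104435160, plus strand: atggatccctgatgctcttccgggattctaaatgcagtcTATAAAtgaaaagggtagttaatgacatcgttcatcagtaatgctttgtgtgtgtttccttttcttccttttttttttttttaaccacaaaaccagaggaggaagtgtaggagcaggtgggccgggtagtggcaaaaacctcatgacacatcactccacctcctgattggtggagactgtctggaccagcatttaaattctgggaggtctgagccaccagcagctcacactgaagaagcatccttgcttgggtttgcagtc
These matches describe letters in a window and are not evidence that a factor bound there.

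Estimated fragments totalled 15516319 to 27759399 per library, and 15935 to 19720 genes were above 0. Fap, the gene behind the sort, had 55.4 and 65.7 CPM in pancreas, 88.8 and 107 in muscle and 28 and 34.4 in adipose FAP+ cells, against 2.37 and 0.52 CPM in MEFs. CPM here are fragment counts per total scaled by the trimmed mean of M values (TMM). Summed over 8 stromal markers, levels were 21900 to 49600 CPM in FAP+ libraries and 3680 to 4920 CPM in MEFs. Of genes often used to mark stellate cells, looked up after the data were seen, Cygb was at 577 and 838 CPM and Des at 41.6 and 34.6 CPM in pancreas, while Gfap was at 0.104 and 0.468 CPM and Lrat at 2.5 and 6.08 fragments. Desmin and Cygb were also present in muscle and adipose, so these genes do not set the pancreas cells apart. The first adipose library stood apart, with a TMM factor of 0.516 where the others had 0.889 to 1.31. In that library the median gene had 0.763 estimated fragments per read recovered from the RPKM table, against 1.08 to 1.19 in the others. Results that involve adipose are therefore also given without it where a call changes.

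Against MEFs, 8 of the 10 genes passed the test in pancreas, 6 in muscle and 6 in adipose FAP+ cells. Genes were called by edgeR's quasi-likelihood test where the p-value, adjusted by Benjamini-Hochberg over 14847 genes, was under 0.05. Of all genes tested, 42.5% were called in pancreas, 43.8% in muscle and 50.1% in adipose, so in muscle and adipose the count of family members is near the background. In pancreas 3 members were higher and 5 lower, beside 23.1% and 19.4% of all genes. In muscle 4 were higher and 2 lower, beside 23.7% and 20%, and in adipose 2 were higher and 4 lower, beside 26.9% and 23.2%. The median log2 fold change over the 10 genes was -1.58 in pancreas, -0.10 in muscle and -0.45 in adipose, beside 0.02, 0.03 and 0.05 over all genes tested. All FAP+ libraries lay above both MEF libraries for Sparc and Sparcl1, and below both for Spp1, Tnc, Ctgf and Wisp2. Over all genes tested, 28.2% lay above and 28% below in this way. The other 4 genes, Postn, Tgfbi, Cyr61 and Nov, overlapped with MEFs in at least 1 library.

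**Figure D1:**
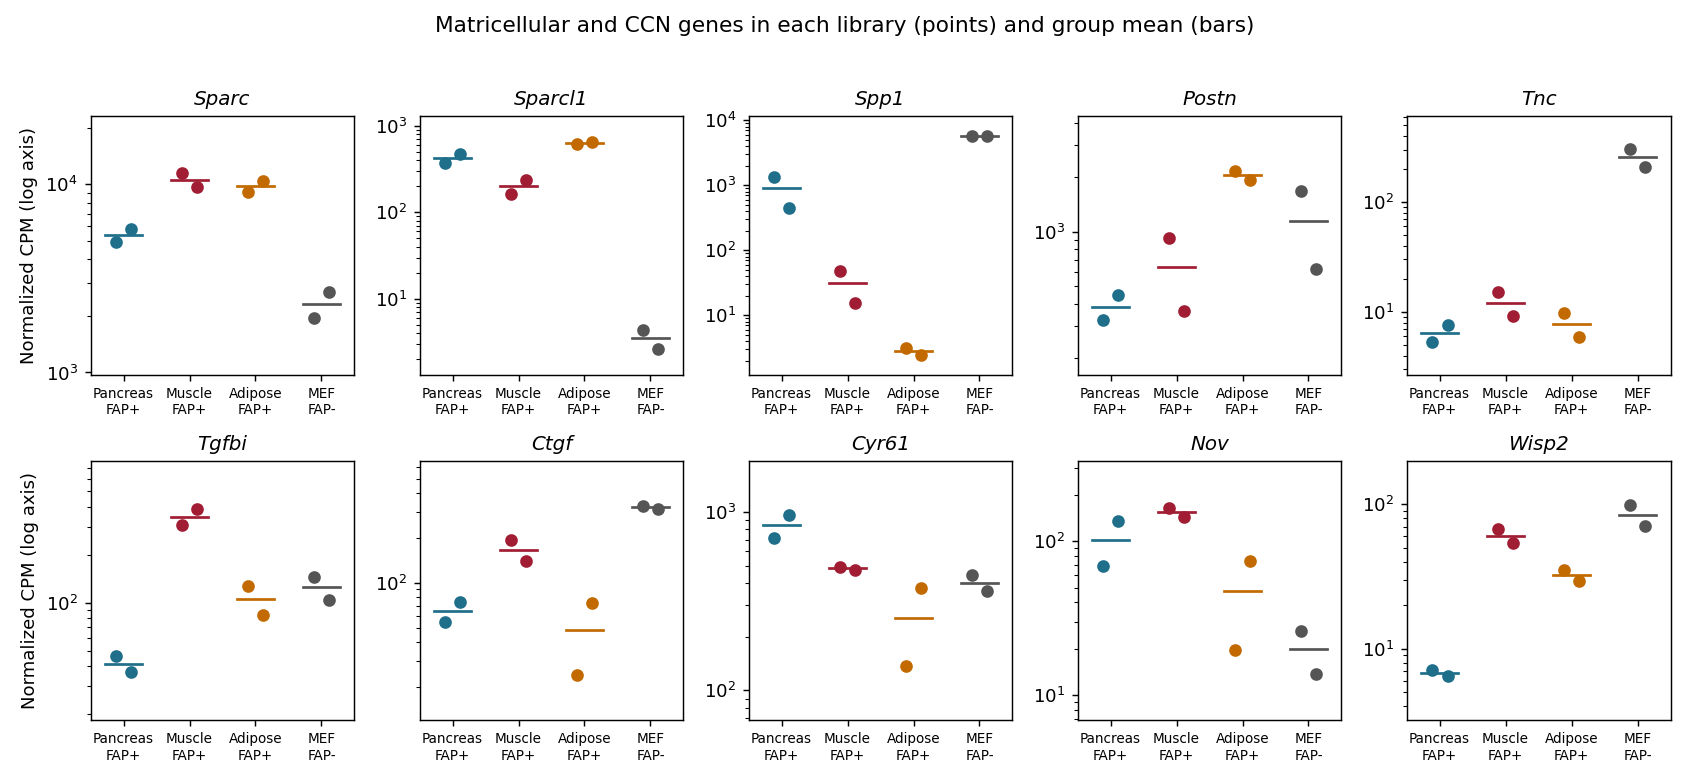
Normalized CPM of each gene (log axis, separate scale per gene) in the 2 libraries of pancreas, muscle and adipose FAP+ cells and MEFs; points are libraries and bars group means. Sparc and Sparcl1 are higher in every FAP+ library than in MEFs, Spp1, Tnc, Ctgf and Wisp2 are lower, and Spp1 spans 2.43 to 5816 CPM.

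Sparc, which encodes the collagen-binding glycoprotein SPARC (osteonectin), was measured at 4966 and 5790 CPM in pancreas, 11530 and 9669 CPM in muscle and 9100 and 10410 CPM in adipose FAP+ cells, against 1948 and 2672 CPM in MEFs. The muscle and adipose libraries overlapped, the pancreas libraries lay below both, and MEFs lay lowest. Relative to MEFs it was 2.33-fold higher in pancreas (log2 1.22 ± 0.36 SE, n = 2 each, adjusted p = 0.0282), 4.59-fold higher in muscle (2.20 ± 0.37, adjusted p = 0.00269) and 4.22-fold higher in adipose (2.08 ± 0.37, adjusted p = 0.00306). Its level differed between pancreas and muscle by log2 -0.98 (adjusted p = 0.248), between pancreas and adipose by -0.86 (0.179) and between muscle and adipose by 0.12 (0.857), none past the threshold. With DESeq2 pancreas was lower than muscle (0.0137) and than adipose (0.0147), and pancreas over muscle also passed in a fit of those groups alone (0.0147) and without either adipose library (0.0462 and 0.0476). The pancreas call against MEFs was lost without any 1 of the 6 libraries of muscle, pancreas or MEFs (adjusted p 0.0535 to 0.151), and with limma on log2(FPKM + 1) (0.298) and log2(RPKM + 1) (0.135). The adipose call was lost when only adipose and MEF libraries were fitted (0.0505) and with limma on log2(FPKM + 1), where the difference was log2 0.96 (0.173).

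Sparcl1, which encodes hevin, a SPARC relative made by stromal and endothelial cells, showed the largest gain among the 10 genes. It had 366 and 475 CPM in pancreas, 163 and 236 CPM in muscle and 615 and 643 CPM in adipose FAP+ cells, against 4.35 and 2.67 CPM in MEFs. The 4 groups did not overlap, with adipose highest and MEFs lowest. The fold over MEFs was 120 in pancreas (log2 6.90 ± 0.45, adjusted p = 6.03e-05), 56.8 in muscle (5.83 ± 0.42, adjusted p = 8.13e-05) and 179 in adipose (7.48 ± 0.46, adjusted p = 3.9e-05), and each call held under all 20 alternative settings. Muscle cells had 3.15-fold less than adipose cells (log2 -1.65 ± 0.35, adjusted p = 0.0374). That call was lost without any 1 of the 6 libraries of muscle, pancreas or MEFs (0.0581 to 0.301), in a fit of muscle and adipose alone (0.143), and with limma on log2(FPKM + 1) (0.242) and log2(RPKM + 1) (0.0706). Pancreas differed from muscle by log2 1.08 (adjusted p = 0.178), which passed with DESeq2 (0.028) and in a fit of those groups alone (0.0212), and from adipose by -0.58 (0.327). Summed levels of 8 endothelial markers were also highest in adipose and lowest in MEFs, but did not follow Sparcl1 between pancreas and muscle. They were 68.2 and 77.2 CPM in pancreas, 104 and 174 CPM in muscle and 540 and 694 CPM in adipose, against 3.71 and 3.21 CPM in MEFs. All 8 markers were above 0 in every group, with Cldn5 at 263 CPM leading in adipose. Tek made up most of the sum in pancreas (63.4 CPM) and muscle (94 CPM), and in pancreas Cdh5 was at 0.179 and 0.0581 CPM and Pecam1 at 1.41 and 0.917 CPM. Their part in the Sparcl1 result was not tested. In bulk libraries fewer cells of a type and less RNA per cell cannot be told apart.

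Spp1 encodes osteopontin, a phosphorylated integrin and CD44 ligand of bone, of activated macrophages and of epithelial ducts. It was measured at 1360 and 443 CPM in pancreas, 48.1 and 15.4 CPM in muscle and 3.13 and 2.43 CPM in adipose FAP+ cells, against 5816 and 5753 CPM in MEFs. The 4 groups did not overlap, and the MEF libraries were almost equal while those of pancreas and muscle differed within the pair. Library 1 had 3.07 times the level of library 2 in pancreas and 3.11 times in muscle. Relative to MEFs, Spp1 was 6.42-fold lower in pancreas (log2 -2.68 ± 0.68, adjusted p = 0.0159), 182-fold lower in muscle (-7.51 ± 0.85, adjusted p = 0.000461) and 2090-fold lower in adipose (-11.03 ± 0.99, adjusted p = 0.000148). The muscle and adipose calls held under all 20 alternative settings, with log2 -8.56 in muscle without muscle library 1 and -6.92 without muscle library 2. The pancreas call was lost without pancreas library 2 or without either MEF library (0.057 to 0.0945), and without pancreas library 1 the difference was log2 -3.71.

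Between tissues Spp1 had the largest differences of the family. Pancreas cells had 28.4-fold more than muscle cells (log2 4.83 ± 0.75, adjusted p = 0.0172) and 326-fold more than adipose cells (8.35 ± 0.89, adjusted p = 0.00381), and muscle cells had 11.5-fold more than adipose cells (3.52 ± 0.73, adjusted p = 0.0341). Pancreas over adipose was the single between-tissue call of the family that held under all 20 alternative settings, with log2 7.33 without pancreas library 1 (adjusted p = 0.0489). The pancreas over muscle call was lost without either muscle library or without pancreas library 1 (0.064 to 0.115), with differences of log2 5.86 without muscle library 1, 4.22 without muscle library 2 and 3.79 without pancreas library 1. The muscle over adipose call was kept without adipose library 2 and lost without any 1 of the other 7 libraries (0.0523 to 0.215), in a fit of those groups alone (0.09) and with limma on log2(FPKM + 1) (0.153) and log2(RPKM + 1) (0.374). Its size was log2 2.48 without muscle library 1 and 4.12 without muscle library 2. Adipose libraries held 9 and 11 recovered reads of Spp1 and 40.6 and 60.4 estimated fragments, so the folds against adipose rest on few reads.

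None of the acinar, mesothelial and macrophage marker lists followed Spp1 across all groups, though the first 2 were higher in the pancreas library with more Spp1. In pancreas, 8 acinar and epithelial markers summed to 212 and 77.4 CPM and 7 measured mesothelial markers to 163 and 61 CPM, so both lists, like Spp1, were higher in library 1. The leading genes of these lists were the keratins Krt8 (73.5 CPM) and Krt18 (61.7 CPM) and the pancreatic elastase Cela2a (23.2 CPM). The acinar and epithelial list summed to 0.786 and 0.638 CPM in muscle, 9.5 and 2.83 CPM in adipose and 2.89 and 2.68 CPM in MEFs, where Spp1 was highest. The mesothelial list summed to 7.98 and 5.67 CPM in muscle, 76.1 and 97.2 CPM in adipose, where Spp1 was lowest, and 56.4 and 74 CPM in MEFs. In adipose this was mostly Wt1 (78.5 CPM), with Msln, Upk3b, Lrrn4 and Upk1b each at 1.52 CPM or less. In pancreas and MEFs it was mostly Krt18 (61.7 and 22.1 CPM) and Krt19 (22.5 and 31.9 CPM). The sum therefore stands for different genes in different groups. The macrophage list of 9 markers summed to 8.92 and 8.61 CPM in pancreas, 20.6 and 17.1 CPM in muscle and 36.5 and 30.3 CPM in adipose, against 5.11 and 7.04 CPM in MEFs. The order of these sums is the reverse of the order of Spp1, but each was mostly Cd14. Cd14 had 5.92 CPM in pancreas, 16.2 in muscle, 18.9 in adipose and 3.95 in MEFs. Cd68, next in pancreas (1.08 CPM), muscle (0.826 CPM) and MEFs (1.42 CPM), did not keep that order. Tyrobp was at 0 fragments in pancreas, muscle and MEFs. In MEFs 7 cartilage and bone markers summed to 1400 and 949 CPM, mostly Col2a1 at 1060 CPM, against 34.2 to 78.4 CPM in FAP+ libraries. Acan, Runx2 and Sp7 were also highest in MEFs, but Alpl was at 1.73 and 0.585 CPM there and 17.1 to 55.5 CPM in FAP+ libraries. In muscle Bglap (13.4 and 0.626 CPM) and Col2a1 (5.28 and 1.39 CPM) were, like Spp1, higher in library 1. The sum of the list in muscle was not (56.1 and 77.5 CPM). The part of these cells in the Spp1 levels was not tested.

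Postn and Tgfbi encode periostin and the TGF-beta-induced protein, secreted relatives with fasciclin domains that bind integrins and collagens and are known targets of TGF-beta. Postn had 325 and 445 CPM in pancreas, 919 and 363 CPM in muscle and 2170 and 1921 CPM in adipose FAP+ cells, against 1683 and 618 CPM in MEFs. Adipose was highest, and the wide gap within MEFs and within muscle left the other groups overlapping in part. Postn did not pass the test against MEFs in any tissue, with log2 -1.58 in pancreas (adjusted p = 0.0628), -0.84 in muscle (0.268) and 0.83 in adipose (0.259). In pancreas it passed without either adipose library or without MEF library 2 (0.0364 to 0.0407), in a fit of pancreas and MEFs alone (0.014), with DESeq2 (0.0157), with limma on log2(RPKM + 1) (0.0337) and on recovered reads (0.0274). In pancreas cells it was 5.32-fold lower than in adipose cells (log2 -2.41 ± 0.61, adjusted p = 0.049). That call lay at the threshold and was lost with upper quartile scaling, no filter or a filter of 5 CPM (0.0527 to 0.0546), in a fit of those groups alone (0.0695) and with limma on log2(FPKM + 1) (0.177) and log2(RPKM + 1) (0.0508). It was kept without adipose library 2 and lost without any 1 of the other 7 libraries (0.0511 to 0.293). Pancreas differed from muscle by log2 -0.74 (adjusted p = 0.73) and muscle from adipose by -1.67 (0.147), which passed with DESeq2 (0.021).

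Tgfbi differed in direction between the tissues. It had 46.2 and 37 CPM in pancreas, 308 and 385 CPM in muscle and 127 and 83.6 CPM in adipose FAP+ cells, against 146 and 104 CPM in MEFs. Muscle lay above, pancreas lay below, and adipose overlapped with MEFs. It was 3.01-fold lower than MEFs in pancreas (log2 -1.59 ± 0.33, adjusted p = 0.00709) and 2.77-fold higher in muscle (1.47 ± 0.33, adjusted p = 0.00936), and in adipose it differed by -0.25 (adjusted p = 0.546). Between tissues, pancreas cells had 8.33-fold less than muscle cells (log2 -3.06 ± 0.35, adjusted p = 0.00583) and 2.53-fold less than adipose cells (-1.34 ± 0.33, adjusted p = 0.0456), while muscle cells had 3.29-fold more than adipose cells (1.72 ± 0.33, adjusted p = 0.0274). Each of these calls depended on some libraries. Against MEFs, pancreas was not called without pancreas library 2 (log2 -1.45), nor muscle without muscle library 2 (log2 1.29) or MEF library 2 (log2 1.27). Pancreas over muscle was not called without muscle library 2 or either pancreas library (0.0545 to 0.0917), and muscle over adipose was not called without any 1 of the 6 libraries of muscle, pancreas or MEFs (0.0538 to 0.183). Pancreas over adipose was kept without adipose library 2 and lost without any 1 of the other 7 (0.0578 to 0.288), with upper quartile scaling (0.058), and with limma on log2(FPKM + 1) (0.244) and log2(RPKM + 1) (0.334). Muscle over MEFs was also not called with limma on log2(FPKM + 1) (0.0695), and muscle over adipose in a fit of those groups alone (0.14). Adipose passed as lower than MEFs on recovered reads (log2 -0.76, adjusted p = 0.0288) and with limma on log2(RPKM + 1) (-1.46, 0.00475).

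Tnc encodes tenascin C, a large hexameric glycoprotein of embryonic mesenchyme, tendon and healing wounds. It had 5.37 and 7.59 CPM in pancreas, 15.1 and 9.22 CPM in muscle and 9.68 and 5.92 CPM in adipose FAP+ cells, against 303 and 210 CPM in MEFs. All FAP+ libraries lay far below MEFs and the tissues were close to each other. Tnc was 39.6-fold lower in pancreas (log2 -5.31 ± 0.45, adjusted p = 0.000141), 21.1-fold lower in muscle (-4.40 ± 0.43, adjusted p = 0.000252) and 33.1-fold lower in adipose (-5.05 ± 0.45, adjusted p = 0.000144). All 3 calls held under the 20 alternative settings. Between tissues the fitted differences were log2 -0.91 for pancreas over muscle (adjusted p = 0.355), -0.26 for pancreas over adipose (0.721) and 0.65 for muscle over adipose (0.343), none past the threshold. Summed levels of the tendon markers Tnmd, Scx and Mkx were, like Tnc, highest in MEFs, but unlike Tnc they differed widely between the tissues. They were 0.432 and 0.529 CPM in pancreas, 29.2 and 25.1 CPM in muscle and 7.18 and 3.88 CPM in adipose, against 104 and 113 CPM in MEFs. Scx had 71.6 CPM in MEFs and 3.82 CPM in muscle. Tnmd in muscle (25.8 and 19.9 CPM) overlapped with MEFs (40.5 and 25.5 CPM). The part of these markers in the Tnc result was not tested.

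**Figure D2:**
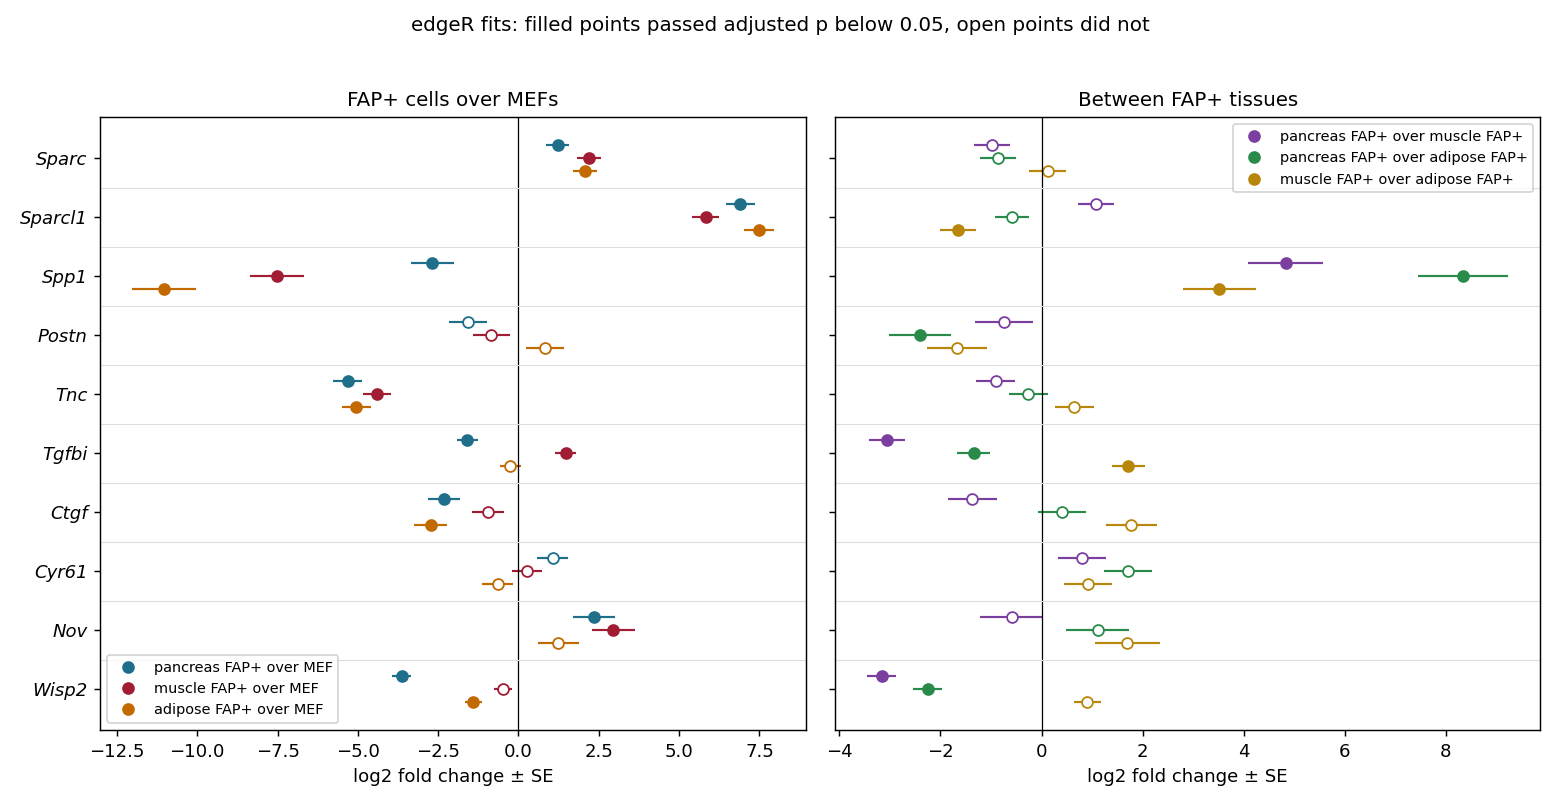
Fitted log2 fold change of each gene, with its standard error, for FAP+ cells of each tissue over MEFs (left) and between tissues (right), on separate scales; filled points passed an adjusted p of 0.05 in edgeR's quasi-likelihood test and open points did not. Against MEFs the values run from -11.03 for Spp1 in adipose to 7.48 for Sparcl1 in adipose, and between tissues from -3.16 for Wisp2 to 8.35 for Spp1.

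Of the CCN genes, Ctgf encodes connective tissue growth factor, a profibrotic target of TGF-beta and of YAP. It had 54.8 and 73.7 CPM in pancreas, 192 and 141 CPM in muscle and 24 and 72.6 CPM in adipose FAP+ cells, against 327 and 315 CPM in MEFs. Every FAP+ library lay below MEFs, muscle least so. Ctgf was 4.99-fold lower in pancreas (log2 -2.32 ± 0.51, adjusted p = 0.00851) and 6.63-fold lower in adipose (-2.73 ± 0.51, adjusted p = 0.00392), and in muscle the difference was -0.95 (adjusted p = 0.149). The adipose call held under all 20 alternative settings, but its size depended on the library, with log2 -2.14 without adipose library 1 and -3.75 without adipose library 2. The pancreas call was lost without either pancreas library (0.0511 and 0.0806). In muscle Ctgf passed on recovered reads (log2 -1.03, adjusted p = 0.0214), in a fit of muscle and MEF libraries alone (0.0119) and without either adipose library (0.00904 and 0.00968). The fitted difference for pancreas over muscle was log2 -1.37 (adjusted p = 0.233) and for muscle over adipose 1.78 (0.0814), both past the threshold on recovered reads (0.047 and 0.0258), the first also in a fit of those groups alone (0.00472) and the second with DESeq2 (0.00582), and for pancreas over adipose 0.41 (0.639). Without adipose library 2, Ctgf differed from adipose by log2 1.42 in pancreas and 2.8 in muscle. Adipose is then library 1 alone, where Ctgf had 0.341 estimated fragments per recovered read. On recovered reads of all libraries the edgeR differences were 0.05 (adjusted p = 0.916) and 1.36 (0.0258). Without either adipose library, pancreas over muscle stayed at log2 -1.37.

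Cyr61, which encodes a secreted integrin ligand that promotes adhesion and blood vessel growth, did not pass in any comparison. It had 718 and 960 CPM in pancreas, 492 and 474 CPM in muscle and 137 and 375 CPM in adipose FAP+ cells, against 445 and 358 CPM in MEFs. Pancreas lay highest, muscle just above MEFs, and adipose library 1 well below adipose library 2. Against MEFs the differences were log2 1.06 in pancreas (adjusted p = 0.102), 0.27 in muscle (0.669) and -0.65 in adipose (0.271). Pancreas passed against MEFs with DESeq2 (0.0409), in a fit of those groups alone (0.00476) and without either adipose library (0.00443 and 0.00521), and against adipose it differed by log2 1.71 (0.0655), which passed on recovered reads (log2 1.81, adjusted p = 0.0233), with DESeq2 (0.00358) and with limma on log2(RPKM + 1) (0.0384). With adipose library 1 alone for that group, adipose differed from MEFs by log2 -1.56, and with adipose library 2 alone by -0.09. Pancreas differed from muscle by log2 0.8 (adjusted p = 0.553), which passed in a fit of those groups alone (0.0443), and muscle from adipose by 0.92 (0.274). Without adipose library 2, pancreas differed from adipose by log2 2.62 and muscle by 1.82, values that rest on adipose library 1 alone. Without adipose library 1, pancreas differed by 1.15. On recovered reads of all libraries, muscle over adipose was 1.05 (adjusted p = 0.145 in edgeR).

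Cyr61 and Ctgf are themselves immediate-early genes, and other genes of that class were far higher in FAP+ cells. Of 17 listed and tested, 15 were higher than MEFs in pancreas, 16 in muscle and 16 in adipose, and the rest did not pass. These are 88.2%, 94.1% and 94.1% of the list, beside 42.5%, 43.8% and 50.1% of all genes called. Their median log2 fold change was 4.89 in pancreas, 5.03 in muscle and 4.5 in adipose. Fos, which encodes a subunit of AP-1, had 5420 and 5550 CPM in pancreas, 4640 and 6170 CPM in muscle and 2950 and 1960 CPM in adipose, against 27.6 and 26.4 CPM in MEFs. Junb, its partner, was higher by 34-fold in pancreas (adjusted p = 0.000713) with 32.7-fold in muscle (0.000721), and the transcription factor gene Klf4 72.4-fold in adipose (4.35e-05). This class also rises while tissue is dissociated, and its part in the levels of Cyr61 and Ctgf was not tested. Between tissues Klf4 was lower in pancreas than in adipose (log2 -1.29, adjusted p = 0.0467), Ier2 was higher there (1.67, 0.0499), and Ier3 was lower in pancreas than in muscle (-2.48, 0.00914).

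Nov, whose product is known to restrain proliferation and to oppose CTGF in kidney cells, was the single CCN gene of the 4 that passed as higher in FAP+ cells. It had 69.1 and 135 CPM in pancreas, 166 and 143 CPM in muscle and 19.6 and 74.9 CPM in adipose FAP+ cells, against 26.2 and 13.8 CPM in MEFs. Pancreas and muscle lay above MEFs, while adipose library 1 lay within the MEF range. It was 5.11-fold higher than MEFs in pancreas (log2 2.35 ± 0.65, adjusted p = 0.0225) and 7.72-fold in muscle (2.95 ± 0.67, adjusted p = 0.00984), and in adipose the difference was 1.24 (adjusted p = 0.135). The pancreas call was lost without pancreas library 2 or either MEF library (0.0694 to 0.136), the muscle call without muscle library 1 or MEF library 2 (0.0503 and 0.0767), and both with limma on log2(FPKM + 1) (0.178 and 0.0907). Between tissues the differences were log2 -0.59 for pancreas over muscle (adjusted p = 0.828), 1.11 for pancreas over adipose (0.305) and 1.7 for muscle over adipose (0.163). Without adipose library 2 the last 2 were 2.39 and 2.98, resting on adipose library 1 alone, whose value depended on the table. On recovered reads of all libraries they were 0.11 (0.81) and 0.56 (0.248) in edgeR. Muscle over adipose passed with DESeq2 (0.0478).

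The adipose value of Nov depended on which deposited table was used. Adipose library 1 had 257 estimated fragments of Nov but 2476 recovered reads, a ratio of 0.104, where the other libraries had ratios of 0.52 to 0.792. Scaled from reads, Nov was at 227 and 244 CPM in adipose, against 68.5 and 40.6 CPM in MEFs. The adipose libraries were then close to each other and lay above MEFs. On reads Nov was 4.32-fold higher in adipose than in MEFs (log2 2.11 ± 0.32, adjusted p = 0.000816), and without adipose library 1 the fragment table gave log2 1.91 (adjusted p = 0.00901). Ctgf in the same library had a ratio of 0.341 and Wisp2 1.91, so the departure was not the same for every gene. Spp1 had 4.51 to 5.67 and Postn 1.7 to 2.75 estimated fragments per read in all libraries, an offset that is shared by the groups and leaves their fold changes nearly as they were.

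**Figure D3:**
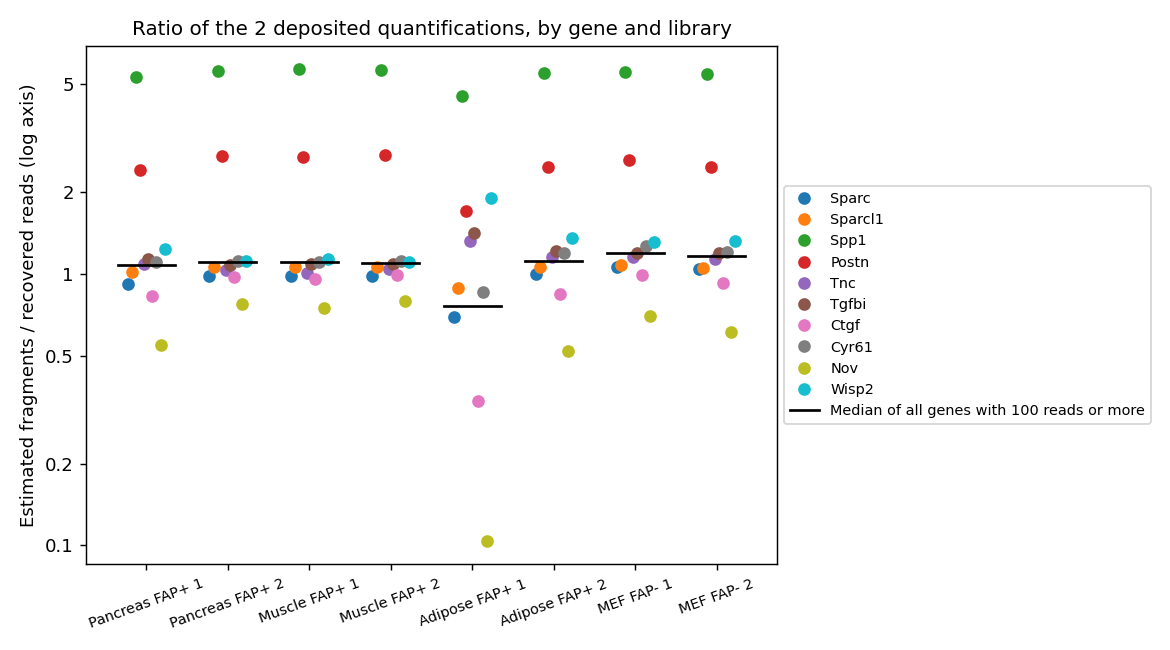
Estimated fragments divided by reads recovered from the RPKM table (log axis) for each gene in each library; black lines mark the median over all genes with 100 reads or more. Nov in adipose library 1 has the lowest ratio, 0.104, and Spp1 sits at 4.51 to 5.67 in every library.

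Wisp2 lacks the C-terminal module of the other CCN proteins and its product is known as a mesenchymal factor that holds back fat cell commitment. It had 7.14 and 6.44 CPM in pancreas, 67.2 and 54.3 CPM in muscle and 35.1 and 29.4 CPM in adipose FAP+ cells, against 99.3 and 70.5 CPM in MEFs. The 4 groups did not overlap, with pancreas lowest and MEFs highest, and the gap between muscle and MEFs was small. Wisp2 was 12.5-fold lower than MEFs in pancreas (log2 -3.64 ± 0.30, adjusted p = 0.000122) and 2.63-fold lower in adipose (-1.40 ± 0.27, adjusted p = 0.00464), and both calls held under all 20 alternative settings. In muscle the difference was log2 -0.48 (adjusted p = 0.178), which passed with limma on log2(FPKM + 1) (-1.08, 0.0408). Pancreas cells had 8.94-fold less than muscle cells (log2 -3.16 ± 0.29, adjusted p = 0.00272) and 4.75-fold less than adipose cells (-2.25 ± 0.29, adjusted p = 0.00553). Both were lost without either pancreas library (0.0507 to 0.0851), and pancreas over adipose also with limma on log2(FPKM + 1) (0.0607) and log2(RPKM + 1) (0.0948). Muscle over adipose was log2 0.91 (adjusted p = 0.0964) and passed on recovered reads (1.66, 0.0106).

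Between tissues, 3 of the 10 genes were called for pancreas over muscle, 4 for pancreas over adipose and 3 for muscle over adipose. Over all genes tested, 3.67%, 9.05% and 6.12% were called, so the counts lie above the background with all libraries in the fit. They did not hold in every fit without 1 library. The share of all genes called changed in those fits as well, so this instability is not particular to the members. For pancreas over muscle 1 was higher and 2 lower, beside 1.54% and 2.14% of all genes, for pancreas over adipose 1 and 3, beside 3.32% and 5.73%, and for muscle over adipose 2 and 1, beside 2.34% and 3.78%. Median log2 fold changes over the 10 genes were -0.82, -0.42 and 0.92, beside 0, 0 and -0.01 over all genes. Spp1 and Tgfbi were called in all 3 comparisons, Wisp2 in the 2 with pancreas, and Sparcl1 and Postn in 1 each. Of the 10 calls between tissues, 1 held under all 20 alternative settings, against 12 of the 20 calls against MEFs.

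Levels of different genes were compared per length, as FPKM (deposited fragment values scaled to transcript length and library total). Sparc was the highest of the 10 genes in each group, with 2970 ± 537 FPKM in pancreas, 5240 ± 485 in muscle and 3660 ± 1890 in adipose, against 1760 ± 301 in MEFs (SD, n = 2). In MEFs Spp1 came next, at 1400 ± 83.1 FPKM, whereas in adipose it was the lowest, at 0.309 ± 0.086 FPKM. Cyr61 was the second highest in pancreas and muscle, at 527 ± 145 and 271 ± 1.71 FPKM. In adipose Postn (178 ± 62.8), Sparcl1 (172 ± 79.2) and Cyr61 (122 ± 116 FPKM) followed Sparc and did not differ beyond their spread. Tnc was the lowest in pancreas (1.16 ± 0.365 FPKM) and muscle (1.94 ± 0.605 FPKM), and Sparcl1 in MEFs (2 ± 0.77 FPKM). The place of Spp1 depended on the table, since by RPKM it had 276 ± 9.28 in MEFs, where Cyr61 had 308 ± 47.1 and Ctgf 267 ± 3.09. The 10 genes together took 0.864% and 0.942% of fragments in pancreas, 1.4% and 1.17% in muscle and 0.631% and 1.21% in adipose, against 1.42% and 1.33% in MEFs. Amplification from the poly(A) tail gives more weight to the end of a transcript nearest that tail, and comparisons of level between genes are approximate for that reason.

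**Figure D4:**
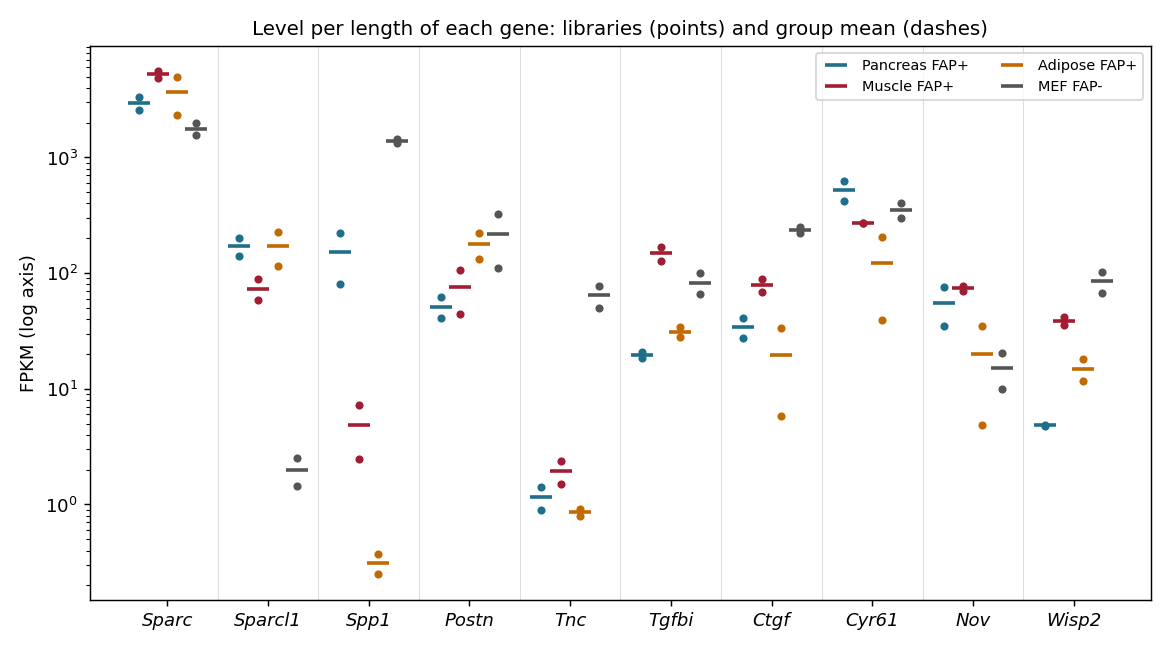
Deposited FPKM (log axis) of the 10 genes in pancreas, muscle and adipose FAP+ cells and MEFs; points are libraries and dashes group means. Sparc is the highest gene in each group (1760 to 5240 FPKM), and Spp1 runs from 0.309 FPKM in adipose to 1400 FPKM in MEFs.

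The genes most like each member were found by the root mean square difference of log2 CPM over the 8 libraries, each profile centred on its mean, among 8981 candidate genes. Closest of all were Loxl2, a collagen cross-linking oxidase gene, and Tmem159 to Sparc (0.178 and 0.189 log2 units). Vwa1, a matrix gene, was nearest to Sparcl1 (0.224), followed by Cyp27a1, a sterol hydroxylase gene (0.4). Ncapg and Dlgap5, both genes of mitosis, were nearest to Tnc (0.295 and 0.351). Fmod, a small collagen-binding proteoglycan, and Rap1gap2 were nearest to Tgfbi (0.282 and 0.368), and Fgf7, a stromal growth factor, and Snx7 to Ctgf (0.293 and 0.33). Rgmb, a BMP coreceptor gene, and Sema3c, a guidance factor gene, were nearest to Nov (0.265 and 0.364), and Kif3a and Ddhd1 to Cyr61 (0.268 and 0.273). Pfkfb3 and Slc16a3, genes of glycolysis and lactate transport, were nearest to Postn (0.412 and 0.493), and the transcription factor gene Tbx18 and thrombospondin 2 (Thbs2) to Wisp2 (0.466 and 0.547). Spp1 had no close match, its nearest being Ptn, a heparin-binding growth factor, and Hs6st2 (1.74 and 1.83). Among the members themselves the closest pairs were Tgfbi and Wisp2 (0.839), Cyr61 and Nov (1.02) and Sparc and Nov (1.03). The other members were among the 8981 candidates, and with so many candidates none was among the 2 genes nearest to a member. The nearest member to Spp1 was Tnc, at 3.23. These are descriptions of 8 libraries in 4 groups. All profiles used estimated fragments. The matches of Nov and Ctgf, and the pairs with them, thus include values of adipose library 1 that depended on the table.

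Other matricellular and SPARC-related genes also moved in both directions. Of 16 tested among 19 listed, 5 were higher and 8 lower than MEFs in pancreas, 8 and 4 in muscle, and 5 and 8 in adipose, with median log2 fold changes of -2.12, 1.01 and -1.66. The called share was 81.2% in pancreas, 75% in muscle and 81.2% in adipose, beside 42.5%, 43.8% and 50.1% of all genes. Tnxb, which encodes tenascin X of loose connective tissue, had 1250 and 1270 CPM in pancreas, 2310 and 1680 CPM in muscle and 1370 and 1510 CPM in adipose, against 0.18 and 0.304 CPM in MEFs. It was high in FAP+ libraries, where its relative Tnc was low. Wisp1, another CCN gene, was lower than MEFs in all 3 tissues by 15.5-fold in pancreas, 19.5-fold in muscle and 16.8-fold in adipose (adjusted p = 1e-04, 8.22e-05 and 7.95e-05). It was named, with Smoc2, after its values were seen. Smoc2, a calcium-binding SPARC relative, was 6.03-fold higher in pancreas, 10-fold in muscle and 5.43-fold in adipose (0.00115, 0.000427 and 0.00126). Thbs1, an activator of latent TGF-beta, was 4.96-fold lower in pancreas, 11-fold lower in muscle and 2.93-fold lower in adipose (0.00378, 0.000735 and 0.0156), the adipose call being lost without MEF library 1 (0.0725). Fstl1, a secreted SPARC relative, was 2.24-fold higher in muscle (0.0355) and 2.04-fold in adipose (0.0479), calls kept in 2 and 1 of 8 fits without 1 library. Between tissues Thbs4, a thrombospondin of tendon and muscle attachment, was 59.6-fold lower in pancreas than in muscle (0.00086), 2.92-fold higher in pancreas than in adipose (0.0357) and 174-fold higher in muscle than in adipose (0.000497). Thbs2 was 6.03-fold lower in pancreas than in muscle (0.0184), and Thbs1 3.75-fold lower in muscle than in adipose (0.0386). Of this list 3 genes were lower for pancreas over muscle, 1 was higher for pancreas over adipose, and 2 were higher and 1 lower for muscle over adipose. These are 18.8%, 6.25% and 18.8% of the list, beside 3.67%, 9.05% and 6.12% of all genes, so pancreas over adipose lies below the background. Without 1 library, in fits added after the data were seen, 30 of the 36 calls against MEFs on the genes named from this and the other lists were always kept, and 2 of the 21 between tissues, those of Thbs4 with muscle.

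Among 15 receptors of matricellular proteins, 4 were higher and 3 lower than MEFs in pancreas, 5 and 3 in muscle, and 4 and 3 in adipose, with medians of log2 0.42, 0.32 and 0.29. The called share, 46.7%, 53.3% and 46.7%, was near the 42.5%, 43.8% and 50.1% of all genes. Cd44, which encodes a receptor of hyaluronan and osteopontin, was lower in all 3 tissues, 9.67-fold in pancreas (adjusted p = 0.000351), with 6.26-fold in muscle (0.000754) and 4.32-fold in adipose (0.00173). Lrp1, an endocytic receptor gene, was higher by 6.48-fold in pancreas (0.000459), with 6.53-fold in muscle (0.000443) and 8.43-fold in adipose (0.000243). Between tissues the fibronectin receptor chain Itga5 was lower in pancreas than in adipose (log2 -2.06, adjusted p = 0.0075) and lower in muscle than in adipose (-1.31, 0.0395). Notch1, whose product binds NOV, was also lower in muscle than in adipose (-1.51, 0.0476).

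Of 11 matrix proteins and enzymes that matricellular proteins bind, 5 were higher and 1 lower than MEFs in pancreas, 6 and 1 in muscle and 8 and 1 in adipose (medians log2 0.83, 1.88 and 2.80). The called share was 54.5%, 63.6% and 81.8%, beside 42.5%, 43.8% and 50.1% of all genes. Col3a1, the collagen of soft connective tissue, was higher by 7.2-fold in pancreas (adjusted p = 0.00248), with 11.4-fold in muscle (0.00104) and 13-fold in adipose (0.000787). Col4a1, of basement membranes, was 17.2-fold higher in pancreas (0.000156). Col1a2, a chain of collagen I, was 3.69-fold higher in muscle (0.00504). Col1a1, its other chain, was at 14800 and 1770 CPM in adipose, against 1140 and 975 CPM in MEFs, and its 7.85-fold difference (0.0233) rested on adipose library 1, being 1.67-fold without that library (0.0715). The call was also lost without either MEF library (0.114 and 0.12). SPARC is known to bind these collagens. Between tissues Fn1, which encodes fibronectin, was 3.72-fold lower in pancreas than in adipose (0.0227).

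YAP and TEAD genes with their published targets, 26 without Ctgf and Cyr61, had 5 higher and 10 lower than MEFs in pancreas, 6 and 10 in muscle and 5 and 8 in adipose (medians log2 -0.07, -0.59 and -0.16). The called share was 57.7%, 61.5% and 50%, beside 42.5%, 43.8% and 50.1% of all genes. Axl, a receptor kinase, was 4.11-fold higher in pancreas, 5.28-fold in muscle and 3.6-fold in adipose (adjusted p = 0.00279, 0.00135 and 0.00363), so genes of this list moved in both directions. Ccdc80 was higher than MEFs in muscle (2.28-fold, 0.0171) and adipose (3.96-fold, 0.00193), and Rbms3 in pancreas (2.78-fold, 0.0269). Without 1 library, the muscle call of Ccdc80 was kept in 4 of 8 fits and that of Rbms3 in 2 of 8. Between tissues Nt5e, which encodes the surface enzyme CD73, was 26.4-fold lower in pancreas than in muscle (0.00247) and 3.72-fold lower in muscle than in adipose (0.0185). Ankrd1 was 12.4-fold higher in pancreas than in muscle (0.0288) and 11-fold lower in muscle than in adipose (0.0267). Without 1 library these were log2 2.92 to 4.63 and -4.47 to -2.76. Ankrd1 was at 0.574 and 0.172 CPM in muscle and Nt5e at 0.208 and 0.26 CPM in pancreas, where 3 fragments equal 0.1315 to 0.1933 CPM. Both Ankrd1 folds and the Nt5e fold of pancreas over muscle thus rest on few fragments. Igfbp3 was 5.44-fold higher (0.038) and Ccdc80 2.43-fold lower (0.0445) in pancreas than in adipose. Of 15 TGF-beta ligands, receptors, Smads and targets, 3 were higher and 5 lower in pancreas, 4 and 2 in muscle and 2 and 3 in adipose (medians log2 -0.25, 0.36 and -0.06). The called share, 53.3%, 40% and 33.3%, was above the 42.5% of all genes in pancreas and below the 43.8% in muscle and the 50.1% in adipose. The receptor genes Tgfbr2 and Tgfbr3 were higher in all 3 tissues, Tgfbr2 by 5.37-fold in pancreas, 4.68-fold in muscle and 6.13-fold in adipose (adjusted p = 0.00145, 0.00198 and 0.000929) and Tgfbr3 by 7.51-fold in pancreas (0.00186), 13.4-fold in muscle (0.000692) and 10.9-fold in adipose (0.000836). Pmepa1, a TGF-beta target, was 3.74-fold higher in muscle than in adipose (adjusted p = 0.0409), the direction of Tgfbi there.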

How the data were processed

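The authors deposited 3 tables per gene for the series. Per the file headers, 1 holds bias-adjusted estimated counts of fragments, which need not be whole, another the matching FPKM values, and another RPKM values. The build mm9 and the tools TopHat2, Bowtie2, HTSeq and edgeR come from the submitters' processing notes, which state no versions or roles. The sources used here do not name the program that adjusted for bias. Per table, 8 columns carried a sample's name and were read, and 6 further columns stayed unused. Per the labels, RNA was amplified with MessageAmp from the poly(A) tail.

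After rounding of the estimated counts to integers, genes were compared with edgeR 4.0.16 in R 4.3.3, by the two-sided quasi-likelihood test with TMM scaling and filterByExpr. All 8 libraries entered 1 fit without covariates, which left 4 residual degrees of freedom. The common biological coefficient of variation was 33.2%. The filter left 14847 genes, all 10 members among them. The SE was taken as the log2 fold change divided by the square root of F. The RPKM values of a gene are whole multiples of a step, from which whole reads were recovered for 21901 genes (100% of their values lay within 0.01 of an integer). For 708 genes no step could be used. These reads totalled 9497145 to 16807757 per library. Their edgeR fit, an alternative added after the data were seen, tested 14365 genes and called 53.5% against MEFs in pancreas, 55.7% in muscle and 56.6% in adipose.

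The members, gene lists and tests were chosen with earlier results of these data known. Genes were named from all members, the 2 called genes of each list with the highest mean CPM in the higher group per comparison, the 2 leading cell type markers per group, and the 2 genes most like each member (of genes with 10 CPM or more in a group, predicted genes, unnamed transcripts and ribosomal protein genes aside). Not every gene this rule names is reported here. The alternatives were RLE and upper quartile scaling, no filter, 5 CPM in 2 libraries, DESeq2 1.42.0, fits limited to 2 groups, a replicate block, limma 3.58.1 on log2 FPKM (pseudocounts 1 and 0.1, and genes at 1 FPKM or more) and log2(RPKM + 1), and each library left out. Fold changes of log2(value + pseudocount) understate the change of low genes. The edgeR step was tested on simulated data. Counting error only is covered by depth, and amplified fragments are not independent molecules.

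Marker lists not described in the report gave these summed levels. Pericyte and smooth muscle genes had 109 to 126 CPM in pancreas, 79.4 to 120 CPM in muscle and 153 to 172 CPM in adipose, against 131 to 148 CPM in MEFs. Fat cell genes had at most 11.3 CPM, muscle cell genes at most 18.6 CPM and Schwann cell genes at most 9.5 CPM in any library.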

Additional observations from a re-analysis of the deposited data

Results flagged for a closer look

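These results stood out because the FAP+ cells of 2 tissues differed from each other by a direct test, edgeR's quasi-likelihood test in the fit of all 8 libraries, which is also the test of a difference between their contrasts with MEFs. Spp1 differed by log2 4.83 for pancreas over muscle (adjusted p = 0.0172), 8.35 for pancreas over adipose (0.00381) and 3.52 for muscle over adipose (0.0341). Tgfbi differed by log2 -3.06 (0.00583), -1.34 (0.0456) and 1.72 (0.0274) in the same 3 comparisons. Wisp2 differed by log2 -3.16 for pancreas over muscle (0.00272) and -2.25 for pancreas over adipose (0.00553). Postn differed by log2 -2.41 for pancreas over adipose (0.049), and Sparcl1 by -1.65 for muscle over adipose (0.0374).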

How the results depend on the processing

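Depth limits Spp1 in adipose, with 9 and 11 reads. Of 20 calls against MEFs 15 to 20 were kept under each alternative, and of 10 between tissues 1 to 10. Leaving out 1 library gave 3 to 10 called members for pancreas over MEFs, 4 to 7 for muscle and 6 to 7 for adipose, and 0 to 5 for pancreas over muscle, 1 to 7 for pancreas over adipose and 0 to 6 for muscle over adipose. The 99 pathway-list genes tested gave 46 to 74, 47 to 77 and 48 to 73 calls against MEFs, and 2 to 15, 0 to 39 and 2 to 46 between tissues, beside 64, 64, 63, 6, 14 and 9 with all libraries. Where edgeR called 0 members without 1 library, 4 to 7 had an unadjusted p under 0.05, and where it called 0 list genes, 22 had. A lone library was assumed to vary like the other groups. For pancreas over adipose, 2 members were called with upper quartile scaling, no filter, the 5 CPM filter, a fit of those groups alone, log2(RPKM + 1) and genes at 1 FPKM, and 1 with either FPKM pseudocount. Over all genes these settings called, in the same order, 9.27%, 4.97%, 9.06%, 2.22%, 12.8%, 7.08%, 3.84% and 3.51%, beside 9.05% in the fit reported above. DESeq2 called 16.2% and recovered reads 22.5%. For muscle over adipose, DESeq2 called 6, recovered reads 5, each FPKM setting 1 and an edgeR fit of those groups alone 0, with 7 members at an unadjusted p under 0.05. Over all genes DESeq2 called 13.7%, recovered reads 13.5%, the FPKM settings 2.07%, 1.67% and 4.02% and that fit 0.536%, beside 6.12%. For pancreas over muscle, DESeq2 called 5 and a fit of those groups 7. Over all genes DESeq2 called 7.11%, that fit 12.9% and recovered reads 6.01%, beside 3.67%. List genes numbered 12 with DESeq2, 23 in a fit of those groups and 11 on reads for pancreas over muscle. For pancreas over adipose they were 26, 2 and 29, with 22 for RPKM, 5 for either FPKM pseudocount and 8 at 1 FPKM. For muscle over adipose they were 23, 2 and 18, with 2 for either pseudocount and 4 at 1 FPKM. Leaving out 1 library changed the share of all genes called as well. Between tissues, the highest counts of members and list genes came from fits without an adipose library. In those fits more of all genes were called than with all libraries. The lowest counts between tissues came from fits where fewer of all genes were called. These ranges therefore do not show a change particular to the members or lists. The causes were not tested.

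Labels do not say that replicate numbers pair samples. With the replicate block 8, 6 and 6 members were called against MEFs in pancreas, muscle and adipose, and 3, 3 and 2 for pancreas over muscle, pancreas over adipose and muscle over adipose. Over all genes 41.9%, 43.3% and 48.5% were called against MEFs and 3.17%, 7.73% and 4.93% between tissues, in the same order. Sparcl1 in muscle over adipose (adjusted p = 0.0536) and Tgfbi in pancreas over adipose (0.0526) were lost, and list genes for pancreas over adipose numbered 9. Deviations of same-numbered libraries correlated across genes at -0.156 to 0.347.

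Directions turned for uncalled values alone. On FPKM, Postn and Nov in adipose over MEFs were log2 -0.13 and -0.07 (Nov -0.11 with pseudocount 0.1), Cyr61 in muscle over MEFs -0.36 (RPKM -0.21), and in pancreas over adipose Tnc was 0.21 or 0.37 (RPKM 0.29, reads 0.25) and Sparcl1 0.06. Leaving out 1 library gave log2 -0.57 to 0.12 for Tnc and -0.18 to 1.42 for Ctgf in pancreas over adipose (turned without adipose library 1), -0.57 to 0.01 for Tgfbi and -0.04 to 1.91 for Nov in adipose over MEFs (without adipose library 2), -1.26 to 0.08 for Postn in pancreas over muscle and -0.01 to 0.24 for Sparc in muscle over adipose (without muscle library 1), and -1.67 to 0.02 for Postn in muscle over MEFs (without MEF library 1). Upper quartile scaling moved the median of all genes for pancreas over adipose to log2 0.14, and the higher share of its calls to 47.1%, beside 36.7%. FPKM without TMM moved the adipose over MEF median to -0.93 at 1 FPKM and the higher share to 19.3%, beside 53.6%.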
